A study of Caenorhabditis elegans with 2 samples.

Results

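The genes examined were the cytosolic ribosomal protein genes of Caenorhabditis elegans: all 81 nuclear protein-coding genes, of 19973 in the WBcel235 annotation, whose symbol starts with rpl-, rps- or rla-. They comprised 47 large-subunit genes (rpl-), 31 small-subunit genes (rps-) and 3 stalk genes (rla-). The measurement was chromatin immunoprecipitation followed by sequencing (ChIP-seq) of F44E2.7, made as 2 biological replicates of whole L4 larvae, which form 1 group with no second condition. The animals were of strain OP381, 48 hours old, grown in synchrony after L1 starvation, and carried the transgene wgIs381, in which F44E2.7 is fused to TY1, EGFP and 3xFLAG, together with unc-119(+), in an unc-119(tm4063) background. The labels describe the antibody as directed against GFP, and chromatin was sonicated to fragments of 200 to 800, for which the labels give no unit. Both replicates came from this single transgenic strain, and peaks from whole animals cannot be assigned to a tissue. The authors' peak lists were read for a summit from 1000 bp upstream to 200 bp downstream of each gene start, here called the promoter window, and the peak of highest signal in it was taken.

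Cytosolic ribosomal proteins assemble with ribosomal RNA into the large and small ribosomal subunits, the particles that translate messenger RNA, and the stalk proteins extend from the large subunit and recruit translation factors. Their genes are highly and jointly expressed in growing tissue, and many of them in animals carry small nucleolar RNA (snoRNA) genes in their introns. Roles given below for single proteins are those of their counterparts in yeast and human ribosomes. The series is labelled as ChIP-seq of a transcription factor, and its labels name no target genes.

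A minority of ribosomal protein genes had a peak that passed the authors' threshold, and the share was above that of protein-coding genes in general in all 4 thresholded lists. In the list made from both replicates, called the pooled list here, 9 of 81 ribosomal protein genes (11.1%, exact Clopper-Pearson 95% interval 5.21 to 20%) had a summit in the window, against 301 of 19973 protein-coding genes (1.51%). In the authors' conservative list from both replicates the count was again 9 of 81 (11.1%), against 296 of all genes (1.48%). The list of replicate 1, which held 178 peaks, gave 4 ribosomal protein genes (4.94%, interval 1.36 to 12.2%), against 58 of all genes (0.29%). The list of replicate 2, with 319 peaks, gave 6 (7.41%, interval 2.77 to 15.4%), against 110 of all genes (0.551%). The intervals cover counting over genes only, since neighbouring genes can share a peak, and read depth is unknown because the files hold no counts. By subunit, the pooled list held 5 of 47 large-subunit genes, 3 of 31 small-subunit genes and 1 of 3 stalk genes.

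**Figure D1:**
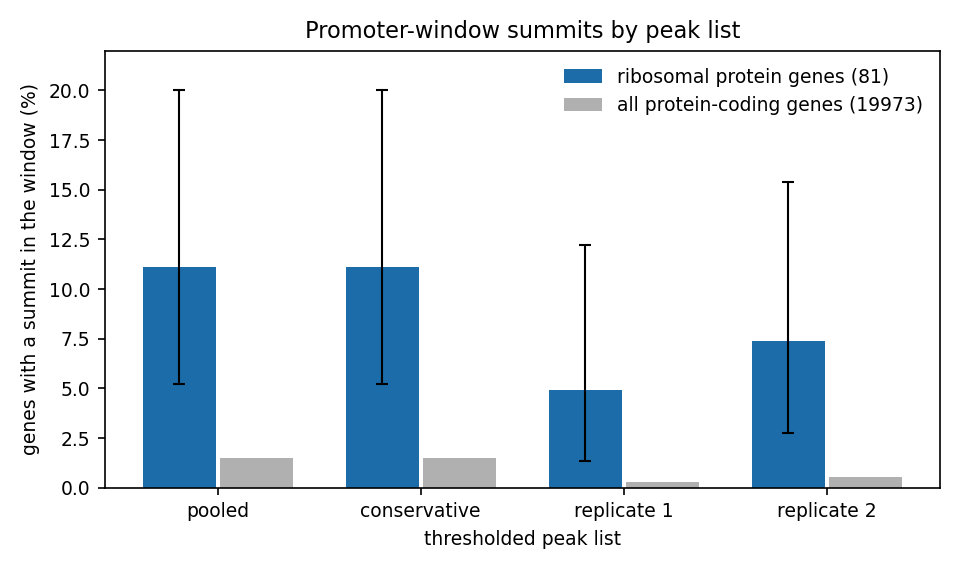
Share of genes with a summit in the promoter window (vertical axis, percent) in each of the 4 thresholded peak lists (horizontal axis), for 81 ribosomal protein genes (blue, with exact 95% intervals as error bars) and all protein-coding genes (grey). The ribosomal protein share was between 4.94 and 11.1%, and that of all genes between 0.29 and 1.51%.

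The 4 strongest peaks were all at large-subunit genes. rpl-3 encodes the protein that reaches toward the peptidyl transferase centre of the ribosome. Its peak had a signal of 289 and ranked 6 of 896 in the pooled list, with its summit 287 bp upstream of the start of rpl-3 (III, 3867854 to 3869587, plus strand). In the full ranked list of each replicate, the rpl-3 window reached a signal of 118 in replicate 1 (rank 28 of 65299) and of 172 in replicate 2 (rank 24 of 71635). The peak stood near the top of both replicates, and at 132 bp it was narrower than the 270 bp of the other 8 pooled peaks at ribosomal protein genes.

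rpl-35, which encodes a protein at the exit of the nascent-chain tunnel, had a signal of 174 (rank 37 of 896), with the summit 430 bp upstream. Its window reached 85.8 in replicate 1 (rank 53) and 91.8 in replicate 2 (rank 100). rpl-20 had a signal of 141 (rank 79), with the summit 280 bp upstream of its own start, and 72.6 in replicate 1 (rank 84) against 68.1 in replicate 2 (rank 226). The start of another gene, Y17G9B.5, lay nearer to that summit, at 182 bp. rpl-3, rpl-35 and rpl-20 were the 3 genes with a summit in the thresholded list of each replicate alone.

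rpl-15, whose product lies deep in the large subunit, had a signal of 137 (rank 86 of 896), with the summit 348 bp upstream. Its window reached 50.1 in replicate 1 (rank 282) and 76.4 in replicate 2 (rank 156), and of the single-replicate lists it passed in that of replicate 2 only. The signal is the authors' enrichment value on an unstated scale, so it orders peaks within a list and is not compared in size between lists.

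The summit windows of these genes are printed because they carry the strongest peaks of the family, and because they shared a short word that the other 5 pooled windows of the family lacked. Each line gives 101 bases centred on the pooled summit, 5′ to 3′ on the strand of the gene, read from the RefSeq WBcel235 genome. The windows are chrIII:3867517-3867617 (plus strand) for rpl-3, chrIII:7854654-7854754 (plus) for rpl-35, chrIV:4750008-4750108 (minus) for rpl-20 and chrIV:654874-654974 (minus) for rpl-15. Capitals mark the word TACACT or its reverse complement AGTGTA.
rpl-3: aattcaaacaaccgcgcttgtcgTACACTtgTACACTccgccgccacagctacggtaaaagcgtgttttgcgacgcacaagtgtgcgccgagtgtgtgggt
rpl-35: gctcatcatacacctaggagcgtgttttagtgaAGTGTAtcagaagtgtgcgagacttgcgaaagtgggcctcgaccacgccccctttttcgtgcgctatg
rpl-20: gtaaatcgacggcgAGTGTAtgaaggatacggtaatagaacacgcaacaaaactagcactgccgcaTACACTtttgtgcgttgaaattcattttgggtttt
rpl-15: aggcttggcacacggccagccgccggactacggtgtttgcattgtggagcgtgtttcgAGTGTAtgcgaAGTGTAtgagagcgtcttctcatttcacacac

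One further gene, rps-1, shared the word. rps-1 encodes a small-subunit protein, and its window passed in the list of replicate 1 alone, at a signal of 49.2 with the summit 256 bp upstream. The summit lay in the non-coding RNA gene F56F3.10, beside F56F3.11. In the ranked lists the rps-1 window reached 49.2 in replicate 1 (rank 296) but 24.3 in replicate 2 (rank 16691), so the replicates disagreed on it. In the pooled ranked list it had a signal of 76.2 and a -log10 IDR of 1.97, just under the threshold, where IDR is the irreproducible discovery rate, which falls as a peak holds its rank between lists. Its 101 bases, centred on the summit of the replicate 1 list, lie at chrIII:4475612-4475712 (plus strand), with the same marking.
rps-1: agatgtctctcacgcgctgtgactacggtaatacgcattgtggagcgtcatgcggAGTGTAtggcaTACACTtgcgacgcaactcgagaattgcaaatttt

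These 5 windows held 9 copies of the word, 4 as TACACT and 5 as AGTGTA on the strand of the gene. The copies began from 36 bp before to 19 bp after the summit. Counted from first base to first base, the pairs lay 8 bp apart in rpl-3, 11 bp apart in both rpl-15 and rps-1, and 52 bp apart in rpl-20, while rpl-35 had 1 copy. The word was therefore present in 4 of the 9 pooled windows of ribosomal protein genes (44.4%) and in 25 of the 887 other pooled windows (2.82%). In flanks centred 300 bp from the pooled summits it was present in 49 of 1792 (2.73%). It was chosen by comparing these same windows, so its count in them is a description and was not tested.

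Away from the strong peaks the word was not common in the family. Of the 64 ribosomal protein genes with a ranked peak but called in no list, 1 (rps-28) held it at its highest ranked summit, against 522 of the 14834 highest ranked summits of all genes (3.52%). Over the whole promoter window, 25 of 81 ribosomal protein genes (30.9%) and 7211 of 19973 genes (36.1%) held it. Among all pooled peaks, those with the word outside the family had a median signal of 87.7, and those without it had 85. Among all genes' highest ranked summits the medians were 29.9 with the word and 30.1 without, so outside the family the signal was close with and without the word.

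Longer stretches were shared by some of these windows. Over all 66 pairs of the 12 windows called in any list, the median longest stretch shared by a pair was 7 bases, and 7 pairs (10.6%) shared 10 or more. Of those 7 pairs, 6 were among the 10 pairs of windows that hold TACACT, which were grouped for sharing it, and 1 was among the 21 pairs of windows without it. The longest shared stretch was 14 bases in both of these groups of windows. Over the 2016 pairs of highest ranked summits of ribosomal protein genes called in no list the median was also 7, and 65 pairs (3.22%) shared 10 or more, among them 2 pairs of genes that share a peak. rpl-15 and rps-1, whose genes lie on different chromosomes, shared the 14 bases gcattgtggagcgt, which occurred in 1 of the 896 pooled windows. rpl-35 and rpl-15 shared ggagcgtgttt, of 11 bases, found in 4 of the 896. A second word, TACGGT with its reverse complement ACCGTA, was present in 3 of the 9 pooled windows of ribosomal protein genes (33.3%; rpl-3, rpl-20 and rpl-15), against 36 of 896 pooled windows (4.02%), and also in the windows of rps-1 and rps-23. It too was picked from these windows. It does not overlap TACACT in these windows. Over promoter windows it was present in 41 of 81 ribosomal protein genes (50.6%) and in 5711 of all genes (28.6%). ACACTC, with GAGTGT, which can overlap TACACT by 5 letters, was present in 4 of the 9 pooled windows (44.4%), against 56 of 896 pooled windows (6.25%), and in 6 of the 12 windows called in any list.

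The remaining windows called in a list carried neither form of TACACT. They are printed for rpl-7A (chrIV:4390564-4390664, minus strand), rps-24 (chrIV:385501-385601, plus), rps-23 (chrIV:12391290-12391390, minus) and rpl-39 (chrV:7776777-7776877, minus), so that they can be read beside the windows above. The rps-23 window is centred on the summit of the replicate 2 list and the rpl-39 window on that of the conservative list.
rpl-7A: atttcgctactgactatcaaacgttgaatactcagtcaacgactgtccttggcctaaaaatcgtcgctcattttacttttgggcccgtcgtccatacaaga
rps-24: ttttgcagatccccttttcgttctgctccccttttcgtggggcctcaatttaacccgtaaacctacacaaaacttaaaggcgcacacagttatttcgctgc
rps-23: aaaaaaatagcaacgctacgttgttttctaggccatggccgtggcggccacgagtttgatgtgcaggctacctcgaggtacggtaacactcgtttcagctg
rpl-39: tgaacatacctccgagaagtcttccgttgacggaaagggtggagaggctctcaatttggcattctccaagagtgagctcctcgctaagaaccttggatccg

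The letters of the B box, an internal promoter element of tRNA genes, were searched on both strands as GTTCGANNC and GTTCAANNC, together with CGAACC, whose reverse complement GGTTCG can overlap the first form by 5 letters. None of the 12 windows of ribosomal protein genes held any of them. The pooled windows held GTTCGANNC in 15.2%, GTTCAANNC in 8.04% and CGAACC in 16.2%. Of all promoters from 250 bp upstream to 50 bp downstream, 1.59% held the first form of the B box, 3.76% the second and 3.9% the third word. The letters GAGAG, with their reverse complement CTCTC, were present in 2 of 9 pooled windows at ribosomal protein genes, against 26% of pooled windows and 40% of such promoters. TATAAA and TGATAA were in none of the 12 windows, against 4.24% and 5.47% of pooled windows and 38% and 30.3% of promoters. These promoters are longer than the summit windows, so a word can occur in more of them by length alone. In flanks of the pooled summits, as long as the summit windows, GAGAG was present in 13.9%, TATAAA in 11.8% and TGATAA in 9.82%. At the highest ranked summits of all genes, in windows of that same length, the shares were 17.6%, 7.95% and 7.44%. TTTCAG, the letters of a splice acceptor, was in 1 of 9, against 8.26% of pooled windows. In the promoters themselves TTTCAG was present in 57 of 81 ribosomal protein genes (70.4%), against 10328 of all genes (51.7%).

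Base composition at the summits was near that of the list as a whole. The 9 windows averaged 47.6 ± 6.69% GC (SD over windows), against 49.7 ± 8.61% for all 896 pooled windows and 36 ± 9.58% for the flanks. The highest ranked summits of ribosomal protein genes called in no list averaged 44.5 ± 9.4%, and those of all genes 40.7 ± 8.71%. Whole promoter windows averaged 37.6 ± 2.2% in the 12 genes called in a list and 37.2 ± 3.09% in the other 69 ribosomal protein genes, against 35.2 ± 3.68% in all genes.

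The other large-subunit gene of the pooled list was rpl-7A, with a signal of 109 (rank 203 of 896) and a summit 24 bp upstream of its start, the nearest of the 9. Its window reached 52.3 in replicate 1 (rank 238) and 55.8 in replicate 2 (rank 408), and it passed in neither single-replicate list. The start of set-21 lay 230 bp from that summit. rpl-39, which encodes a small protein lining the exit tunnel, was in the conservative list in place of rps-19, with a signal of 72.5. Its summit, 748 bp upstream, lay in a coding exon of the neighbouring ribosomal protein gene rps-30, 249 bp inside it, so the same peak was counted in the body of rps-30. In the ranked lists rpl-39 reached 38 in replicate 1 and 36.6 in replicate 2.

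Among small-subunit genes rps-26, whose product lines the exit channel of messenger RNA, was highest. It had a signal of 93.3 (rank 324 of 896) and a summit 435 bp upstream on chromosome I, with 46 in replicate 1 (rank 374) and 59.3 in replicate 2 (rank 332). The snoRNA gene F39B2.14 lay 83 bp from that summit and the start of tmem-107 lay 22 bp from it, so the peak was much nearer to both than to rps-26. rps-24 had a signal of 68 (rank 813), 336 bp upstream, with 33.8 in replicate 1 and 37.9 in replicate 2. rps-19, on chromosome I, had a signal of 64.2 (rank 851), 323 bp upstream, with 22.7 in replicate 1 (rank 11673) and 51.9 in replicate 2 (rank 516). Its replicates were far apart in rank, and the start of hsr-9 lay 122 bp from the summit.

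rps-23, which encodes a protein of the decoding centre, passed in the list of replicate 2 alone, at 54.7 and 287 bp upstream. The ranked list of replicate 1 had no peak in its window, and the start of dpm-3 lay 247 bp from the summit. Its pooled signal was 61.9 at a -log10 IDR of 1.76. The lowest -log10 IDR in the pooled list was 2, so of the family rps-1 at 1.97 fell just outside it and rps-24 at 2.09 just inside.

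Of the stalk genes, rla-0 encodes the protein that anchors the stalk, and rla-1 and rla-2 encode its acidic partners. rla-0, on chromosome I, had a pooled signal of 75.1 (rank 673 of 896), with 39.4 in replicate 1 (rank 737) and 35.4 in replicate 2 (rank 3081). Its summit lay in an intron 199 bp downstream of the start, 1 bp inside the window, and it left the count when the window was shortened. rla-1 reached 47.8 in the pooled ranked list, with 19.2 in replicate 1 and 33.1 in replicate 2. rla-2 reached 41.9, with 14.9 in replicate 1 and 29 in replicate 2, and neither passed in any thresholded list.

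Most of the called summits lay in one stretch upstream of the start. Of the 9 pooled summits, 7 (77.8%) lay more than 250 and at most 500 bp upstream, against 72 of the 292 other genes with a summit in the window (24.7%). None lay more than 500 bp upstream, where 116 of the other genes (39.7%) had theirs. The median position was -323 bp in ribosomal protein genes and -409 bp in the other genes. The start nearest to the summit was that of the ribosomal protein gene in 6 of 9 cases (66.7%), against 224 of 292 (76.7%). A small RNA gene lay within 200 bp of 1 of the 9 summits (11.1%, the snoRNA at rps-26), against 113 of 292 (38.7%), and none of the 12 peaks lay near a tRNA gene. Outside rla-0, the other 8 pooled summits were intergenic.

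**Figure D2:**
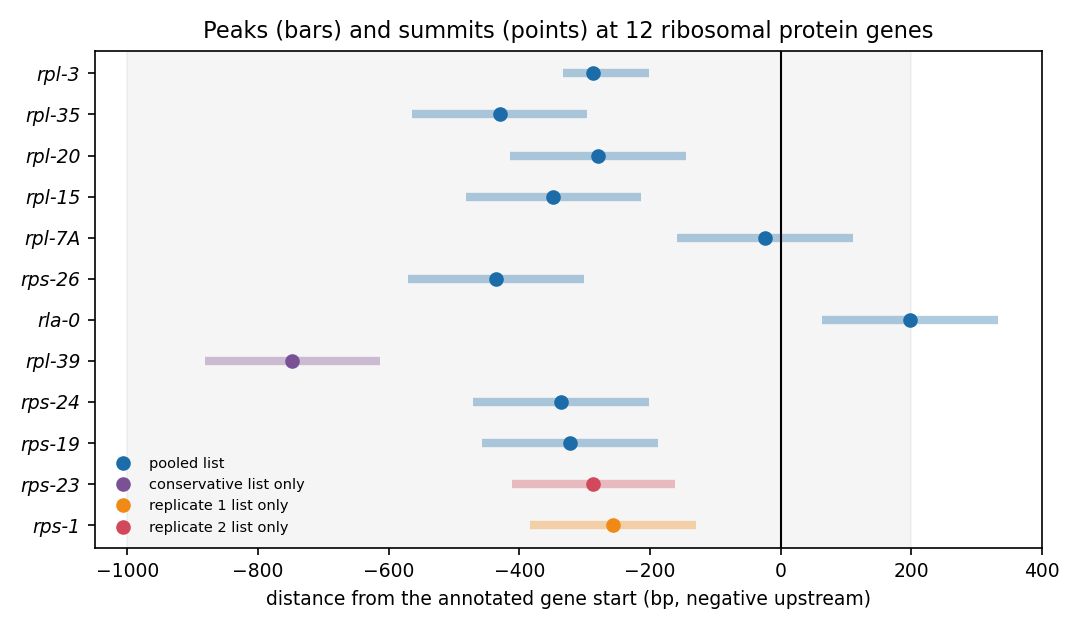
Peaks (bars) and summits (points) of the 12 ribosomal protein genes called in any thresholded list, by distance from the annotated gene start in bp (horizontal axis, negative upstream), ordered down the page by signal in the list named by the colour. The shaded span is the promoter window. Apart from rpl-7A, rla-0 and rpl-39, the summits lay from 256 to 435 bp upstream.

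The weaker peaks of the family were described from the full ranked list of pooled peaks, which holds 108809 peaks with no threshold. A ranked peak was present in the window of 76 of 81 ribosomal protein genes (93.8%), against 14834 of 19973 genes (74.3%). Among genes with one, the median highest signal was 42.7 for ribosomal protein genes (quartiles 28.3 to 55.5, range 3.09 to 289), against 30.1 for all genes (quartiles 21.6 to 40.1). Above the 90th percentile of all genes, at a signal of 51, stood 25 of the 76 (32.9%), against 10% by definition. Without a peak were rpl-6, rpl-9, rpl-13, rpl-25.2 and rpl-28, and the lowest signals were 3.09 for rpl-4 and 7.63 for rps-8. The family therefore spanned most of the range of all genes, which ran from 2.11 to 345. Its highest signal was 289 (rpl-3) and the next was 174 (rpl-35).

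**Figure D3:**
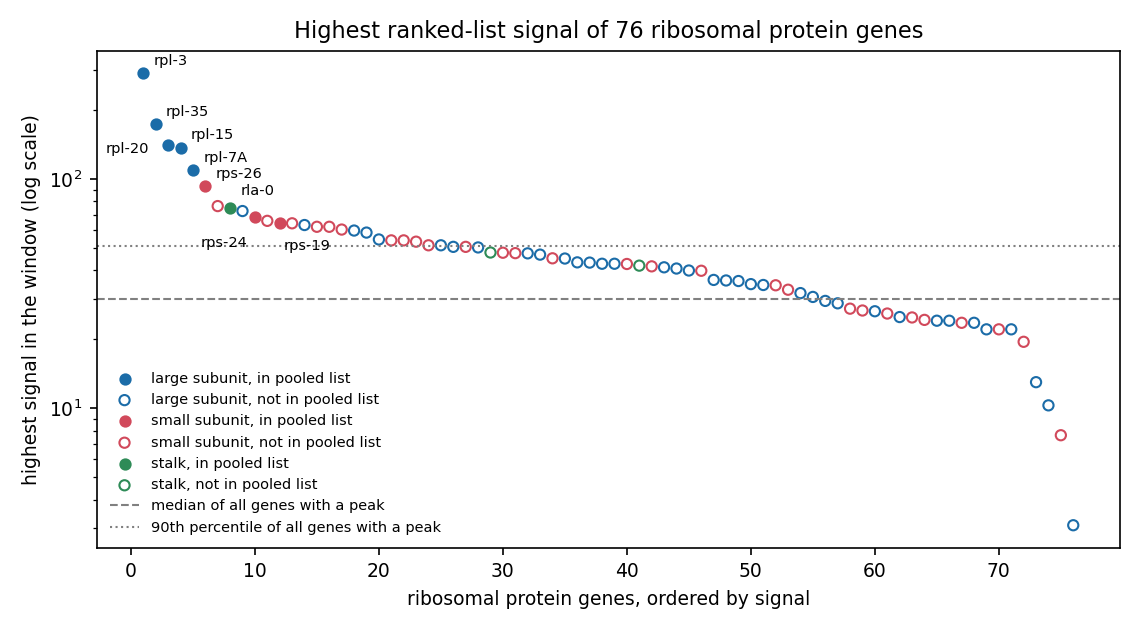
Highest signal in the promoter window (vertical axis, log scale) of the 76 ribosomal protein genes with a peak in the pooled ranked list, in descending order (horizontal axis). Filled points are genes of the pooled thresholded list, and the lines mark the median (30.1) and the 90th percentile (51) of all genes with a peak; 55 of the 76 points lie above the median.

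By subunit, the medians were 40.9 for the 42 large-subunit genes with a peak, 47.5 for the 31 small-subunit genes and 47.8 for the 3 stalk genes. Above a signal of 51 were 11 large-subunit genes (26.2%), 13 small-subunit genes (41.9%) and 1 stalk gene. The large subunit thus held the 5 highest peaks, while its median was the lowest of the 3 groups. The difference in medians is small beside the quartiles within each subunit, 28.9 to 51.2 in the large and 26.9 to 61.1 in the small.

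Among genes called in no thresholded list, rps-13 was highest at 65.7, with 28.9 in replicate 1 and 38.8 in replicate 2 and its summit in a coding exon 48 bp inside the gene, within 200 bp of the non-coding RNA gene C16A3.15. rps-27 had 64.1 (20.7 in replicate 1, 34.9 in replicate 2), and its summit also lay in a coding exon, 69 bp inside. rpl-30 had 63, and its summit 903 bp upstream lay nearest to the start of pab-1, the poly(A)-binding protein gene. In replicate 2 the rpl-30 window reached 55.4 at -901 bp. The 24.2 of replicate 1 came from another peak, 49 bp inside rpl-30. The next were rps-15 (61.9), rps-17 (60.2), rpl-38 (59.6), rpl-11.2 (58.4), rpl-41.2 (54.5), rps-18 and rps-16 (54 each) and rps-22 (53.3). rps-15 and rpl-38 had no peak in the window in replicate 1, and reached 47.2 and 42.4 in replicate 2. After them came rpl-36 and rps-14, which shared 1 peak of 51.4 between them. The highest peaks of the 4 strongest genes were intergenic, and those of the 76 genes together lay in coding exons in 33 cases and in intergenic sequence in 31. No share over all genes is set beside these counts, so they describe the family only.

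Genes were also paired by the number in their symbols alone, and the paired genes differed in signal. rpl-11.2 reached 58.4, against 36.1 for rpl-11.1. The highest values in the window were 33.2 against 21.7 in replicate 1 and 27 against 18.8 in replicate 2. For rpl-11.1 these came from different peaks, at -934 bp in the pooled ranked list, 15 bp in replicate 1 and -233 bp in replicate 2. rpl-24.2 reached 43.3, against 22.1 for rpl-24.1, and the windows gave 21.4 against 19.1 in replicate 1 and 22.9 against 19.2 in replicate 2. For rpl-24.2 the replicate 1 summit lay at -879 bp and the pooled one at -179 bp. For rpl-24.1 the replicate 2 summit lay at -287 bp and the pooled one at 12 bp. rpl-41.2 reached 54.5, against 34.8 for rpl-41.1, and in replicate 2 the values were 32.6 and 13.5. In replicate 1 rpl-41.1 had no peak in its window, and rpl-41.2 reached 17.5 at -872 bp. That replicate 1 summit lay inside rpl-41.1, beyond the window of rpl-41.1. rpl-36 reached 51.4, against 36.3 for rpl-36.A, and rpl-25.1 had 24.1 where rpl-25.2 had no peak in the pooled ranked list. rpl-7A reached 109, against 50.6 for rpl-7. The windows gave 52.3 against 30.9 in replicate 1 and 55.8 against 29 in replicate 2. For rpl-7 the replicate 1 summit lay at 186 bp and the pooled one at -325 bp. With 1 group and 2 replicates none of these differences was tested.

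Of 81 genes, 54 had a ranked peak in both replicates, 7 in replicate 1 alone, 17 in replicate 2 alone and 3 in neither. Of all 19973 genes, 7977 had a ranked peak in both. A ranked peak was present in replicate 1 in 75.3% of the family, against 55.4% of all genes. In replicate 2 it was present in 87.7%, against 58.9%. The counts in 1 replicate alone stand without a share over all genes. Over the 54 genes the signals of replicates 1 and 2 had a Spearman rho of 0.59 and a Pearson r of 0.87, a description across genes, which are not independent replicates. The highest peak was taken in each replicate separately and summits were not matched, so the values compare windows and not single peaks. In rpl-12, for example, that peak lay at -772 bp in replicate 1 and at -18 bp in replicate 2. Over the 45 of these 54 genes outside the pooled list, a list that selects peaks of reproducible rank, rho was 0.36 and r 0.27. rpl-3 and rpl-35 were within the first 100 peaks of both replicates, whereas rps-1 and rps-19 stood high in rank in one and much lower in the other. Over all 7977 genes with a peak in both, rho was 0.29 and r 0.52. In replicate 1 the median was 21.7 in the 61 ribosomal protein genes with a peak, against 17.7 in all genes, and in replicate 2 it was 29 in 71 such genes, against 20.3 in all genes.

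**Figure D4:**
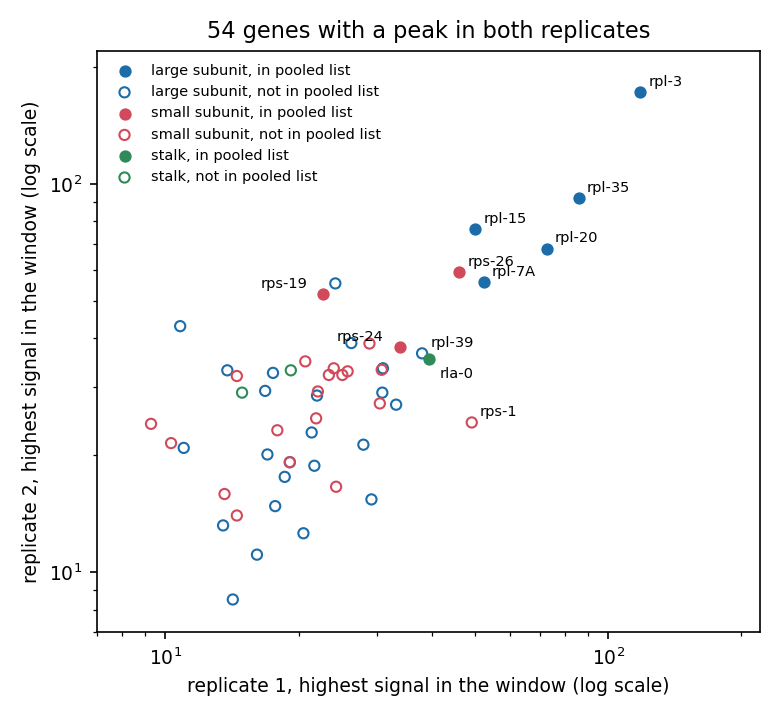
Highest signal in the promoter window in replicate 1 (horizontal axis) and replicate 2 (vertical axis), both on log scales, for the 54 ribosomal protein genes with a peak in both ranked lists. Summits were not matched between replicates, so a point can combine 2 different peaks of a window. Colours give the subunit and filled points the genes of the pooled list. rpl-3, rpl-35, rpl-20 and rpl-15 lie at the upper right, rps-1 (49.2 and 24.3) ranked lower in replicate 2 and rps-19 (22.7 and 51.9) ranked lower in replicate 1.

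Summits inside the genes, beyond the window, were a separate group. In the pooled list 7 of 81 ribosomal protein genes (8.64%) had a summit more than 200 bp inside the gene, against 398 of all genes (1.99%). rpl-2, which encodes a protein at the peptidyl transferase centre, had the highest, at 114 (rank 165 of 896) in a coding exon 774 bp inside. rpl-26 followed at 99.4 (rank 268), in its 3′ UTR 531 bp inside. Those 2 were also the ones that passed in the list of replicate 2 (2.47% of the family), at 64.2 and 54.4, where 0.676% of all genes passed, and none of the family passed in the list of replicate 1, against 0.376% of all genes. The rest were rps-8 (74.4, 250 bp inside), rpl-20 (73.1, 289 bp), rpl-3 (72.4, 1715 bp, in its 3′ UTR), rpl-7A (55.7, 852 bp, with the snoRNA gene Y24D9A.10 at 66 bp) and rps-25 (21.1, 427 bp). rpl-2, rpl-26, rps-8 and rps-25 had no called peak in their promoter window, and rpl-3, rpl-20 and rpl-7A had both. The conservative list gave 8 genes (9.88%), against 1.94% of all genes: rpl-2, rpl-26 and rpl-20 with the same peaks, rpl-7A with another peak (69.3, 1381 bp inside, no small RNA gene within 200 bp), and rps-30, rla-0 (74.9, 873 bp inside), rpl-35 (44.5, 389 bp) and rps-12 (69, 338 bp, with 2 snoRNA genes within 200 bp).

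Other genes of translation were read the same way in the pooled list. Of 70 mitochondrial ribosomal protein genes 1 had a summit in the window (mrpl-23, 103, 979 bp upstream and near the snoRNA gene T08B2.13), which is 1.43% against 1.51% of all genes. Of 31 aminoacyl-tRNA synthetase genes 1 did (ears-2, signal 120, 19 bp upstream). No elongation factor gene of 6, initiation factor gene of 34, ribosome assembly gene of 26 or ubiquitin fusion gene of 2 (ubl-1 and ubq-2, whose products also yield ribosomal proteins) had one, although 1 initiation factor gene did in the conservative list. The median highest ranked signal was 42.7 for the cytosolic ribosomal protein genes, against 30 for the mitochondrial ones, 32.6 for elongation factors, 33.4 for initiation factors, 35.4 for synthetases and 34.6 for assembly genes.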

How the data were processed

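Peak lists of F44E2.7 ChIP-seq on the ce11 assembly came from 2 biological replicates (1 group). Per the file notes deposited with them, series lists derive from both replicates and sample lists from 1. For the aligner, the caller and the use of the named possible controls, nothing is given in the sources used here. Each deposited list holds the authors' score (a whole number up to 1000), signal, −log10 q-value and, in ranked lists, −log10 IDR (column names follow the usual peak-file order). Which series-level ranked list is of pooled reads was inferred from its signals.

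Gene starts came from the Ensembl 115 annotation of WBcel235, whose chromosome names and lengths fit ce11 (0 of 6 chromosomes with a peak end beyond the genome), and bases from the RefSeq genome. All 896 pooled peaks had an IDR of 0.01 or lower in the ranked list, which held 987 such peaks; none of the others had its summit in a window of the family. Small RNA genes were tRNA, snoRNA, snRNA, miRNA, rRNA, piRNA and other ncRNA genes within 200 bp of a summit. Genes named were those called in a thresholded list, the next 12 by ranked signal (with a tie), genes whose symbols share a number, stalk genes and those with a gene-body summit. Members, lists and words were chosen with earlier results of these data known, and no test was run. The replicates came from separate cultures only as far as the labels call them biological. Python 3.11.15, pandas 2.3.3, numpy 2.4.6 and scipy 1.17.1 were used. On simulated data, 40 of 40 summits planted in windows of ribosomal protein genes were recovered. Decoy peaks lay outside all gene windows, so this checks the window search only and says nothing about the deposited lists. Alternatives covered the window, list, IDR, transcript start, nearest start, small RNA distance and sequence window.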

Additional observations from a re-analysis of the deposited data

How the results depend on the processing

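In the count of ribosomal protein genes with a summit, 8 genes passed with a window of 500 bp upstream to 100 bp downstream. When any overlap of the peak counted, 11 passed (13.6%), against 357 of all genes (1.79%). A looser IDR limit moved the count most. With limits set on the ranked list, 4 genes passed at an IDR of 0.001 (rpl-3, rpl-35, rpl-20 and rpl-15), against 72 of all genes, and 21 at 0.05 (25.9%), against 805 (4.03%). Counting a summit only for the gene with the nearest start left 6 genes, against 231. All genes counted 174 with the shorter window. With 2000 bp upstream they counted 491 (2.46%), against 10 ribosomal protein genes (12.3%). Without summits near small RNA genes they counted 189, against 8 ribosomal protein genes. Leaving out a replicate gave 4 to 6 ribosomal protein genes, against 58 to 110 of all genes. Relative to 11.1% and 1.51%, the shares kept the order of ribosomal protein genes above all genes in each of these alternatives.

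The median signal, 41.9 with absent peaks placed lowest, was 26.7 in the shorter window, and from 17.7 to 26.1 with a replicate left out, in lists of another scale. A small RNA gene lay within 500 bp of 2 called summits. The median position ranged from -316 to -272 bp, and gene-body summits numbered 0 to 2, with a replicate left out. TTTCAG was in 4 windows with 100 bp to either side. Of 50 alternatives, 32 left the value within the limits used (1.5 times for a count, 1 SD for a median or mean), and the cause of the other 18 was not tested. For a median the SD was that of the 2 single-replicate values, and for mean GC content that over windows, so the limits are unlike. The 50 include the counts over all genes and the TACACT count that follows. TACACT over 100 bp to either side, chosen after seeing the data, gave 4 windows again. No paired analysis was possible because there was 1 group. Read depth was unknown, so absence of a peak was not read as absence of binding.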

Other observations

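Of the 81 ribosomal protein genes, 13 host 19 snoRNA genes in the annotation. In the pooled list 2 of these 13 had a summit in the promoter window (rpl-7A and rpl-15), against 7 of the 68 others and 7 of the 179 hosting genes outside the family (3.91%; all genes, 1.51%). The median highest ranked signal was 49 in the hosting genes with a peak, against 42.2 in the others and 33.8 in hosting genes outside the family. Of the highest ranked summits of 76 ribosomal protein genes, 11 lay within 200 bp of a small RNA gene, 5 of them near a snoRNA gene. The nearest start was that of the ribosomal protein gene itself in 48 of the 76. These counts over the 76 genes also stand without a share over all genes.

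The family is spread over all 6 nuclear chromosomes, and the pooled peaks fell on 3 of them. Chromosome IV had 4 of its 18 ribosomal protein genes called, against 1.43% of all genes there, chromosome I had 3 of 25, against 1.84%, and chromosome III had 2 of 18, against 2.39%. No gene of the family was called among 10 on chromosome II, 8 on V and 2 on X, where 1.57%, 1.08% and 1.1% of all genes were called.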
